A study of Mus musculus with 9 samples.

Results

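The genes described here are the nuclear genes of respiratory complex I in mouse gastrocnemius, a calf muscle. They comprise the 47 protein-coding genes whose symbol starts with Nduf, of 55487 genes in the count table. By symbol, 8 of them are assembly factors (Ndufaf) and 39 are not. Of the 39, 37 are structural subunits of complex I. The other 2 carry an Nduf symbol without being structural subunits of the complex: Ndufa4, which is found in complex IV, and its paralogue Ndufa4l2. All 47 genes passed the filter on low counts, so none was left out of the tests.

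Muscle RNA was sequenced from wild-type C57BL/6 mice (the labels' name; the text of the study gives C57BL/6J) in 3 groups. Control (n = 4) lived in conventional cages, Unloading (n = 2) was sampled at day 10 of hindlimb unloading, in which a line to the tail lifts the hindquarters so that the hind legs carry no weight, and Reloading (n = 3) was sampled 1 day after normal cage activity resumed at the end of the unloading period. The labels call all mice male, whereas the methods of the study name female mice in the unloading protocol, and the age of the mice is not given in the sources used here. Each library is 1 labelled sample of its group, and the p-values measure the spread between these libraries.

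Complex I, NADH:ubiquinone oxidoreductase, is the entry point of electrons from NADH into the mitochondrial respiratory chain. It is L-shaped: a matrix arm carries the flavin and the iron-sulfur clusters along which electrons pass to ubiquinone, and a membrane arm pumps protons across the inner membrane. The core subunits that do the chemistry are encoded partly in the nucleus (matrix arm) and partly in mitochondrial DNA (mt-Nd genes, membrane arm), and accessory subunits, all nuclear, surround them. Assembly factors help to build the complex and are absent from the finished enzyme. Skeletal muscle is rich in the complex.

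The libraries held from 9252443 to 19612101 counted read pairs, and 1 read pair was worth between 0.0510 and 0.108 CPM, the count per 1000000 counts of the library. CPM below carry TMM scaling (trimmed mean of M-values), and log2 fold changes come from 1 edgeR quasi-likelihood fit over all 9 libraries, with p-values adjusted by Benjamini and Hochberg over 14851 tested genes and a threshold of 0.05. The summed CPM of 7 skeletal muscle fibre markers lay between 146397 and 159575 in Control, between 151578 and 155993 in Unloading and between 106101 and 118953 in Reloading, so the labelled tissue was found in every library. The summed CPM of 8 macrophage markers was 66.5 to 77.0 in Control, 70.6 to 72.0 in Unloading and 140 to 158 in Reloading, and that of 6 endothelial markers was 146 to 167, 140 to 141 and 248 to 304 in the same order. Skin keratin genes were found in Control 2 and Reloading 1, so counts of changed genes are also given without these 2 libraries. In whole muscle, fewer fibres and less RNA per fibre cannot be told apart.

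Subunit genes were expressed far above assembly factor genes in Control muscle. Per kilobase of exon, the median level of the 39 subunit members was 117 CPM per kb, against 12.6 CPM per kb for the 8 assembly factors. Ndufa4 (345 CPM per kb) and the membrane arm subunit Ndufb11 (320 CPM per kb) stood highest. Among the structural subunits the lowest levels per kilobase were those of Ndufb2 (6.08 CPM per kb) and Ndufab1 (12.1 CPM per kb), the mitochondrial acyl carrier protein, and Ndufa4l2 lay at 4.73 CPM per kb. The assembly factors ran from Ndufaf2 (3.09 CPM per kb) to Ndufaf1 (20.6 CPM per kb), and Ndufaf1 and Ndufaf5 (20.2 CPM per kb) differed by less than the spread between the Control libraries. The length used is the summed annotated exon length, which lowers the value of genes with long minor transcripts. This length was 5628 bases for Ndufb2 and 6883 for Ndufab1, so their low ranks depend on it. Before division by length, their Control means were 34.2 and 83.5 CPM. The value of Ndufaf2 is uncertain, since 65.7% of its exon length is shared with another annotated gene and reads were counted without strand. The fewest read pairs in any library were 82 for an assembly factor and 36 for a subunit member (Ndufa4l2), and 238 for any other subunit member, so the assembly factors were measured with less precision (median SE of the log2 fold change of Unloading against Control, 0.11 against 0.08).

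**Figure D1:**
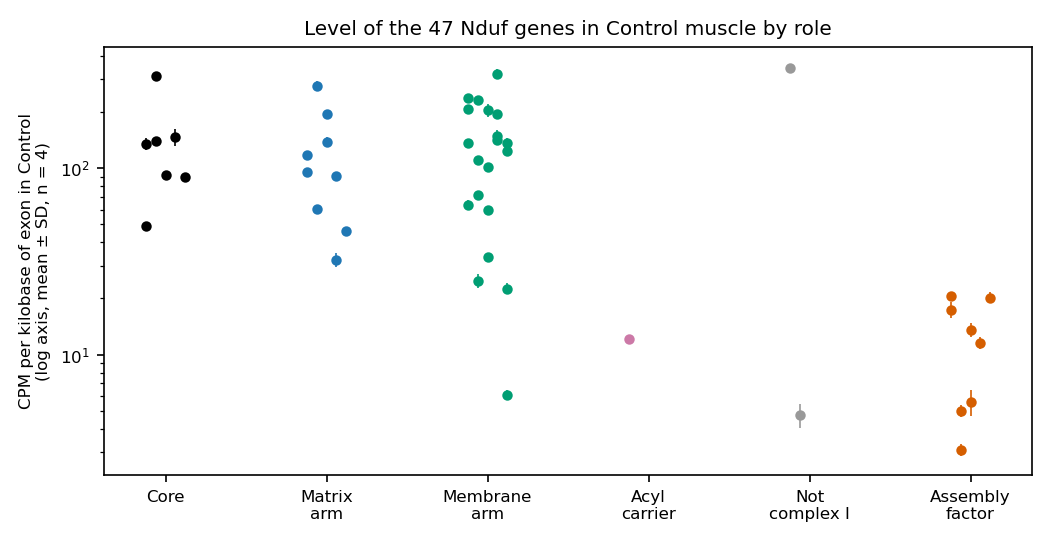
Level of each of the 47 genes in Control (vertical log axis, CPM per kilobase of exon; points are means and bars the SD of the 4 Control libraries), by role in complex I. All 8 assembly factors lie between 3.09 and 20.6 CPM per kb, below the subunit median of 117 CPM per kb.

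No motif searched in the promoters was found at most of these genes. Differences from all genes were not tested. Windows of 300 bases (250 before to 50 after the annotated start, GRCm38.p6, sequences from RefSeq) were held for 41 of the 47 genes. Exact letters were searched on both strands. The YY1 motif AAGATGGC was found at 7 of 34 subunit members (20.6%) and 1 of 7 assembly factors, compared with 3.19% of 27025 genes with a window. The subunit genes holding it were Ndufa3, Ndufa9, Ndufb8, Ndufc1, Ndufs4, Ndufs6 and Ndufs7, and the assembly factor was Ndufaf8. The NRF1 motif GCGCATGCG stood at 2 subunit genes (5.88%, Ndufa8 and Ndufa11) and 2 assembly factors (28.6%, Ndufaf4 and Ndufaf5). The share of all genes was 1.95%. The cyclic AMP response element TGACGTCA was found at 3 subunit genes (8.82%, Ndufa10, Ndufa11 and Ndufb2) and 0 assembly factors, compared with 2.03%. The ETS motif CCGGAAG, read by GABP, was at 4 subunit genes (11.8%) and 2 assembly factors (28.6%), compared with 9.93%. The oestrogen-related receptor motif TCAAGGTCA was at 0 of the 41 genes, compared with 0.466%. None of these motifs contains another. A match of letters is not a bound site.

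Promoters are printed for 4 genes that the results below turn on, in the direction of the gene from 5′ to 3′, with the matched motifs in capitals. Ndufc1 (chr3:51408906-51409205, minus strand) had the lowest fold change in Unloading and holds the YY1 motif. Ndufb2 (chr6:39592315-39592614, plus strand) had the lowest fold change from Unloading to Reloading and holds the cyclic AMP response element. Ndufaf4 (chr4:24897833-24898132, plus strand), the only member called higher in Reloading than in Unloading under TMM scaling, holds the NRF1 motif on both strands at 1 place, since its letters continue into their own reverse complement. Ndufaf8 (chr11:120098684-120098983, plus strand), an assembly factor lower in Unloading, holds the ETS motif and, after it, the YY1 motif.
Ndufc1: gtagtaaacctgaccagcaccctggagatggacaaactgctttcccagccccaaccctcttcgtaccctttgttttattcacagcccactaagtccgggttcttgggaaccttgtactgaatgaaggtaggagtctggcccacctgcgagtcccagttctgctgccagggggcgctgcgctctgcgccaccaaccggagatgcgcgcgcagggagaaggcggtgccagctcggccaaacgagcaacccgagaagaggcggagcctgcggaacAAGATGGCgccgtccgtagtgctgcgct
Ndufb2: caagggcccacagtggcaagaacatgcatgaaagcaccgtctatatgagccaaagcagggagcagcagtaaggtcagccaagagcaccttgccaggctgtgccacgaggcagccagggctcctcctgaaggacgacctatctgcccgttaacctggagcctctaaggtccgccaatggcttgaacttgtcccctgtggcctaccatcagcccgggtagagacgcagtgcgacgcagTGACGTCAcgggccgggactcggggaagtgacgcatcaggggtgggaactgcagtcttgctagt
Ndufaf4: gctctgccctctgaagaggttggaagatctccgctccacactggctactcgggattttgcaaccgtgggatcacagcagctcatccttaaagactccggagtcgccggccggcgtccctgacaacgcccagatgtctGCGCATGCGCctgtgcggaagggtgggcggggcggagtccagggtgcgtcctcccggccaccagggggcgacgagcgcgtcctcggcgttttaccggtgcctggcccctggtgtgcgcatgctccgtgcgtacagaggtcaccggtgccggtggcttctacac
Ndufaf8: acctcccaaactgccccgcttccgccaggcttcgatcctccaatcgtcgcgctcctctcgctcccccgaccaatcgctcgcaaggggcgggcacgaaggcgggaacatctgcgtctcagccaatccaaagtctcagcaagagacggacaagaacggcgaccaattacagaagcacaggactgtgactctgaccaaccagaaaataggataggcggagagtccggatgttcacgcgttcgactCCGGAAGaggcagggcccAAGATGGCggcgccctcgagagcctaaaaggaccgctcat

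As classes, the transcripts of the nuclear complex I genes decreased from Control to Unloading and, under TMM scaling, again from Unloading to Reloading. Averaged over genes, with each gene's log2 CPM centred on its mean over the 9 libraries, the 39 subunit members scored between 0.21 and 0.31 in Control, -0.15 and 0.06 in Unloading, and between -0.37 and -0.29 in Reloading. The 3 groups did not overlap. The 8 assembly factors scored between 0.18 and 0.30 in Control, -0.18 and 0.00 in Unloading, and between -0.27 and -0.20 in Reloading, again without overlap. In both classes Unloading 1 was lower than Unloading 2. The share of all counts taken by the 47 genes, which involves no TMM scaling, was 0.691% to 0.730% in Control, 0.536% in Unloading 1, 0.604% in Unloading 2 and 0.536% to 0.557% in Reloading. On that scale Control stood apart from both other groups, and Unloading 1 lay within the range of Reloading.

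**Figure D2:**
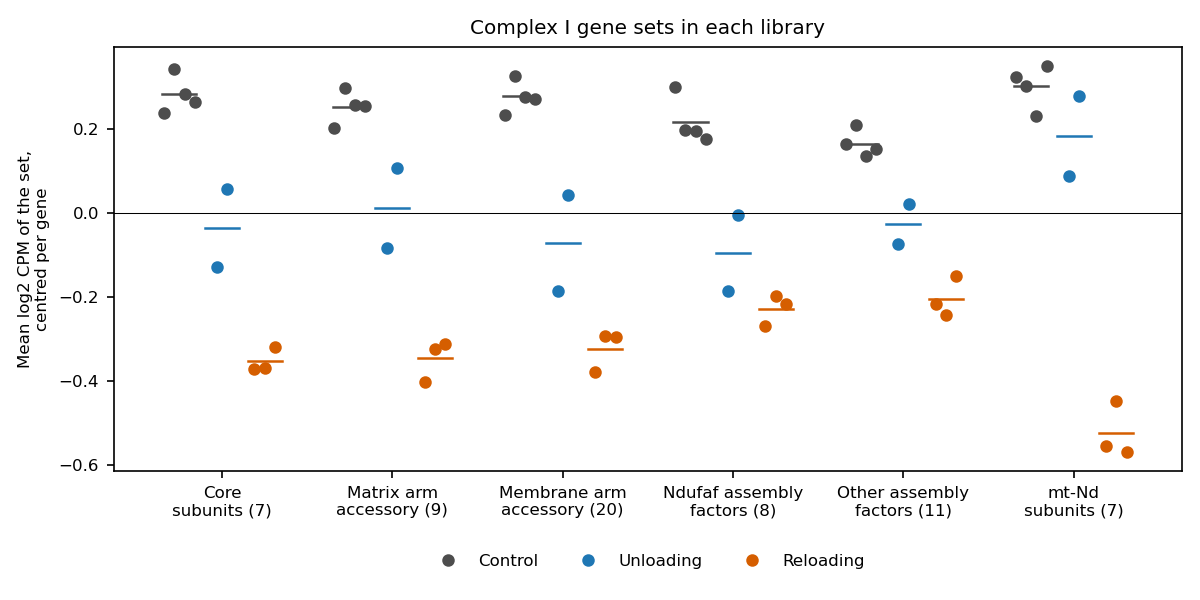
Mean log2 CPM of 6 sets of complex I genes, centred per gene (vertical axis), in each library; points are libraries, horizontal bars group means and the number of genes is given under each set. In the sets of nuclear genes the 3 groups do not overlap, while for the mt-Nd subunits an Unloading library lies within the Control range.

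Unloading was compared with Control to see what 10 days without load did to these transcripts. Of the 39 subunit members 24 fell, 0 rose and 15 did not pass the threshold, with a median log2 fold change of -0.32. Among all tested genes 5.5% were called lower and 4.4% higher, and the median log2 fold change was 0.00. The fitted change was negative for 38 of the 39. In 31 of the 39 all Unloading libraries lay below all Control libraries, compared with 16.6% of all tested genes. Of the 8 assembly factors 2 fell and 0 rose, with a median of -0.27, and all 8 had a negative fitted change.

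The core subunits of the matrix arm, which bind the flavin or iron-sulfur clusters or shape the quinone site, give the pattern in Unloading. Ndufs1, the largest core subunit and a carrier of iron-sulfur clusters (ENSMUSG00000025968, chr1:63143596-63176833), measured 391, 397, 377 and 411 CPM in Control 1 to 4, and 282 and 308 CPM in Unloading 1 and 2. Unloading was 25.1% lower (log2 fold change -0.42 ± 0.07, SE; adjusted p = 0.00385 by edgeR). Ndufs8, another iron-sulfur subunit, measured 111, 116, 121 and 116 CPM in Control, and 76.4 and 91.0 CPM in Unloading (log2 fold change -0.47 ± 0.08, adjusted p = 0.00300). For both genes every Unloading library lay below every Control library. Ndufv1, which holds the flavin and the NADH site, measured 330, 387, 370 and 339 CPM in Control against 265 and 314 in Unloading (-0.30 ± 0.09, adjusted p = 0.0365). Ndufv2, its iron-sulfur partner, measured 318, 301, 286 and 295 CPM in Control against 233 and 251 in Unloading (-0.31 ± 0.07, adjusted p = 0.0165). Ndufs3 and Ndufs7 did not pass, with log2 fold changes of -0.19 and -0.34. Ndufs7 overlapped between the groups, since Unloading 2 at 222 CPM lay just above Control 1 at 221 CPM.

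Among the accessory subunits, 15 of the 20 of the membrane arm and 3 of the 9 of the matrix arm fell in Unloading, with median log2 fold changes of -0.36 and -0.25. The difference between the arms was not tested. Ndufc1, a small membrane arm subunit (ENSMUSG00000037152, chr3:51404677-51408988), had the lowest fold change of all 47 genes. It measured 164, 147, 150 and 148 CPM in Control, and 94.2 and 111 CPM in Unloading, with no overlap. It was 32.6% lower (log2 fold change -0.57 ± 0.08, adjusted p = 0.000951). Ndufa8, a membrane arm subunit facing the intermembrane space, measured 178, 187, 184 and 169 CPM in Control, and 104 and 140 CPM in Unloading (-0.55 ± 0.10, adjusted p = 0.00415). The 2 Unloading libraries lay far apart in this gene, and both were below Control. Ndufab1, the acyl carrier protein found in both arms, measured 80.9, 82.2, 88.3 and 82.5 CPM in Control, and 54.0 and 63.1 in Unloading (-0.51 ± 0.08, adjusted p = 0.00234). The 3 matrix arm genes that fell were Ndufa5, Ndufa9 and Ndufs6. At the other end, Ndufb2 of the membrane arm was within the Control range in both Unloading libraries (-0.06 ± 0.09, adjusted p = 0.717).

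Of the assembly factors, Ndufaf8 and Ndufaf4 fell in Unloading. Ndufaf8, a partner of Ndufaf5 (ENSMUSG00000078572, chr11:120098928-120100705), measured 10.4, 12.4, 10.7 and 12.0 CPM in Control, and 7.11 and 8.52 CPM in Unloading (log2 fold change -0.53 ± 0.14, adjusted p = 0.0305). Ndufaf4, which acts early in assembly of the matrix arm (ENSMUSG00000028261, chr4:24898083-24905001), measured 49.4, 41.4, 43.8 and 45.3 CPM in Control, and 36.8 and 36.3 CPM in Unloading (-0.30 ± 0.09, adjusted p = 0.0486). Neither gene overlapped between the groups. The call of Ndufaf8 was lost in 6 of 17 alternative settings, and that of Ndufaf4 in 12 of 17, so in most of them. The other 6 did not pass. Their log2 fold changes were -0.25 for Ndufaf1, -0.09 for Ndufaf2, -0.51 for Ndufaf3, -0.23 for Ndufaf5 and -0.27 for both Ndufaf6 and Ndufaf7.

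The number of genes called in Unloading rested on Unloading 1. Without that library, 1 subunit member (Ndufc1) and 0 assembly factors were called lower, with medians of -0.21 and -0.24. The share of all tested genes called lower was then 0.361%. Without Unloading 2 the counts were 27 and 1. Leaving out 1 Unloading library leaves a lone library in its group, which is then assumed to vary like those of the other groups. Without Control 2 and Reloading 1, 18 subunit members and 2 assembly factors were lower, as were 4.24% of all tested genes.

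**Figure D3:**
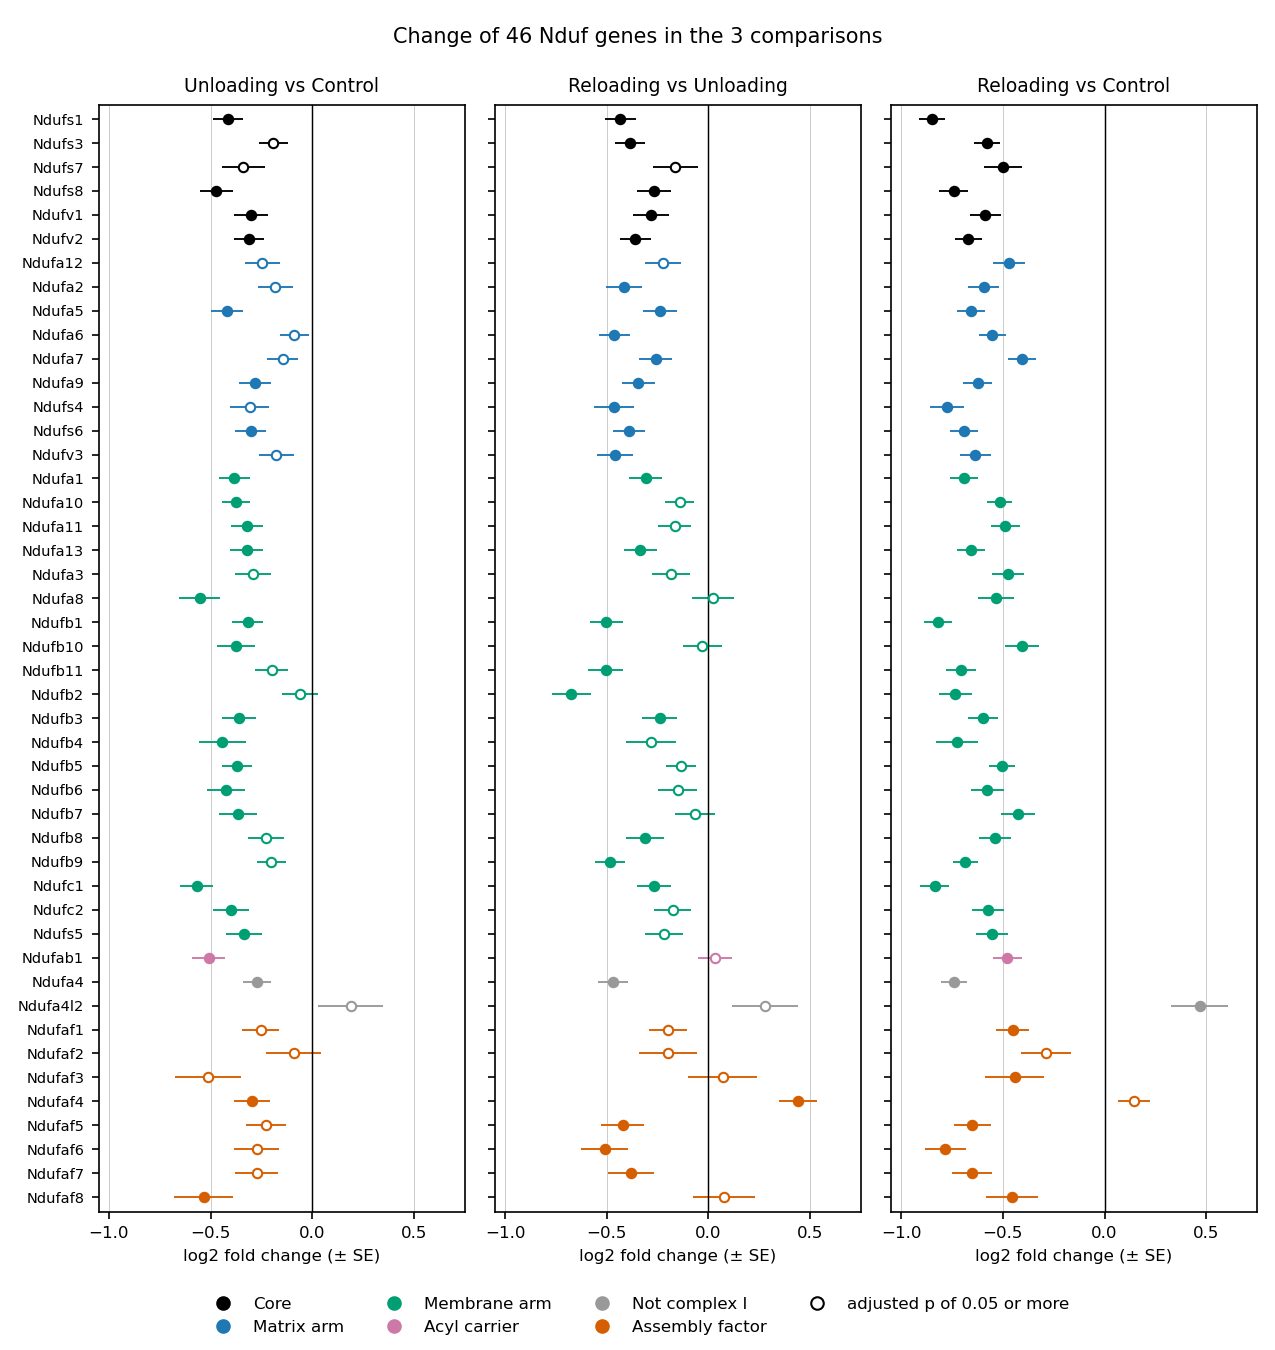
Log2 fold change of 46 of the genes (horizontal axes, points ± SE from the edgeR fit) in the 3 comparisons, ordered and coloured by role; filled points have an adjusted p under 0.05. In Reloading against Control all structural subunits shown lie left of 0 with filled points, while Ndufa4l2 lies right of 0 and Ndufaf4 right of 0 with an open point.

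Reloading was set against Unloading to see what a single day of renewed load added. Of the 39 subunit members 24 were lower in Reloading, 0 were higher and 15 did not pass, with a median log2 fold change of -0.28. Among all tested genes 19% were called lower and 18.5% higher, with a median of 0.03. In 29 of the 39 all Reloading libraries lay below both Unloading libraries, compared with 29% of all tested genes. Of the assembly factors 3 were lower and 1 was higher, with a median of -0.20.

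This step depended on the scaling. TMM factors were 0.928 to 0.960 in the Control and Unloading libraries and 1.11 to 1.13 in Reloading. With library totals only, the median over all tested genes moved to a log2 fold change of 0.27, that of the subunit members to -0.03 and that of the assembly factors to 0.05. On that scale 6 subunit members were called lower (Ndufa4, Ndufa6, Ndufb1, Ndufb2, Ndufb9 and Ndufb11), 3 were called higher (Ndufa4l2, Ndufa8 and Ndufab1), and 0 assembly factors were lower, while 7.34% of all tested genes were called lower and 35.4% higher. The sign of the fitted change turned positive in 15 members, among them Ndufa5 and Ndufb3, which had been called lower under TMM scaling (both -0.24, against 0.01 on this scale). The decreases given for this step are therefore relative to the other genes of the same libraries. Without Unloading 2, fewer members passed as lower, and the fitted changes of 3 uncalled members (Ndufb7, Ndufb10 and Ndufs7) turned positive (0.0972, 0.128 and 0.00571). Without Control 2 and Reloading 1, 19 subunit members and 3 assembly factors were lower, as were 15.9% of all tested genes.

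By count, a larger share of matrix arm than of membrane arm genes passed as lower in the reloading step under TMM scaling. Of the 9 matrix arm accessory genes 8 were lower (Ndufa12 did not pass), as were 6 of the 7 core genes and 9 of the 20 membrane arm accessory genes, with medians of -0.39, -0.36 and -0.23. The difference was not tested. Both steps use the same 2 Unloading libraries, with opposite sign. In Reloading against Control, which does not compare them, all 9 matrix arm and all 20 membrane arm accessory genes were lower. Their medians were -0.62 and -0.58, and 21.3% of all tested genes were called lower. With library totals only, no core gene was called lower in the reloading step. The accessory genes called lower were then Ndufa6 of the matrix arm and Ndufb1, Ndufb2, Ndufb9 and Ndufb11 of the membrane arm. Ndufb2, a membrane arm subunit (ENSMUSG00000002416, chr6:39592574-39603382), had the lowest fold change of this step. It measured 31.6, 35.6, 33.1 and 36.5 CPM in Control, 32.4 and 33.3 CPM in Unloading, and 19.2, 20.5 and 22.0 CPM in Reloading. Unloading lay within Control and Reloading below both. It was 37.3% lower in Reloading than in Unloading (log2 fold change -0.67 ± 0.09, adjusted p = 6.70e-05). Ndufb11, a membrane arm subunit encoded on the X chromosome, measured 232 and 275 CPM in Unloading, and 179, 171 and 184 CPM in Reloading (-0.51 ± 0.09, adjusted p = 0.000358), without overlap.

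The core genes continued downward under TMM scaling, with 1 exception. Ndufs1 measured 232, 206 and 218 CPM in Reloading 1 to 3, below both Unloading libraries (log2 fold change -0.43 ± 0.08, adjusted p = 0.000497). Ndufs3, of the quinone module, measured 204, 206, 194 and 192 CPM in Control, 167 and 182 in Unloading, and 128, 136 and 136 in Reloading (-0.39 ± 0.07, adjusted p = 0.000924). In both genes the groups were ordered from Control through Unloading to Reloading without overlap. Ndufs8 measured 69.1, 68.4 and 71.1 CPM in Reloading, Ndufv1 242, 233 and 238, and Ndufv2 180, 188 and 198, and each was lower than in Unloading (-0.27, -0.28 and -0.36). Ndufs7 was the exception, with 177 and 222 CPM in Unloading and 167, 184 and 185 CPM in Reloading (-0.16 ± 0.11, adjusted p = 0.261). All calls of core genes in this step were lost with library totals only (adjusted p by edgeR, 0.0527 for Ndufs1 and 0.149 for Ndufs3). The calls of Ndufs8 and Ndufv1 were also lost without Reloading 2.

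Ndufab1 and Ndufa8, which had fallen in Unloading, did not pass in the reloading step under TMM scaling. Ndufab1 measured 56.6, 61.9 and 61.4 CPM in Reloading, overlapping with Unloading (log2 fold change 0.03 ± 0.09, adjusted p = 0.791). Ndufa8 measured 126, 128 and 118 CPM, between the Unloading libraries (0.02 ± 0.10, adjusted p = 0.889). Over both steps, 13 subunit members passed as lower in each, 11 in the unloading step alone, 11 in the reloading step alone and 4 in neither (Ndufa12, Ndufa3, Ndufa4l2 and Ndufs7). The members of the unloading step alone were Ndufa8, Ndufa10, Ndufa11, Ndufab1, Ndufb4, Ndufb5, Ndufb6, Ndufb7, Ndufb10, Ndufc2 and Ndufs5, of which all except Ndufab1 belong to the membrane arm. Passing in 1 step and missing in the other is no test of a difference between the steps.

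Under TMM scaling Ndufaf4 was the only member called higher in Reloading than in Unloading. The groups of Ndufa4l2 were also ordered upward without overlap, but it did not pass (log2 fold change 0.28). Ndufaf4 measured 36.8 and 36.3 CPM in Unloading, and 45.3, 53.2 and 50.1 CPM in Reloading, without overlap. The log2 fold change was 0.44 ± 0.09 (adjusted p = 0.00184), and it passed as higher in all 18 settings tried, where it ranged from 0.38 to 0.69. Against Control it did not differ past the threshold (0.14 ± 0.08, adjusted p = 0.148), and the 2 groups overlapped. With library totals only, it was higher than Control as well (0.38, adjusted p = 0.00101).

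The 3 assembly factors that were lower in Reloading than in Unloading were Ndufaf5, Ndufaf6 and Ndufaf7. Ndufaf6, a factor for an early step of assembly (ENSMUSG00000050323, chr4:11051045-11076205), measured 23.5, 22.6, 20.9 and 18.9 CPM in Control, 16.6 and 18.7 in Unloading, and 12.2, 12.0 and 13.1 in Reloading. The order of the groups held without overlap (log2 fold change against Unloading -0.51 ± 0.12, adjusted p = 0.00319). Ndufaf5, a hydroxylase that modifies Ndufs7, measured 37.9, 38.6, 34.4 and 33.6 CPM in Control, 27.6 and 33.8 in Unloading, and 21.8, 22.3 and 24.8 in Reloading (-0.42 ± 0.11, adjusted p = 0.00599). Ndufaf7, a methyltransferase, measured 18.8, 17.1, 15.8 and 18.1 CPM in Control, 14.4 in both Unloading libraries, and 11.7, 10.8 and 10.8 in Reloading (-0.38 ± 0.11, adjusted p = 0.0159). All 3 calls were lost with library totals only. The call of Ndufaf7 was also lost with the replicate block by either set of numbers and without either Unloading library, and that of Ndufaf5 without Unloading 2. Ndufaf8, with 6.85, 9.40 and 8.54 CPM in Reloading, overlapped with Unloading (0.08 ± 0.15, adjusted p = 0.724), unlike Ndufaf5, its partner, which fell. The difference between the 2 partners was not tested.

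**Figure D4:**
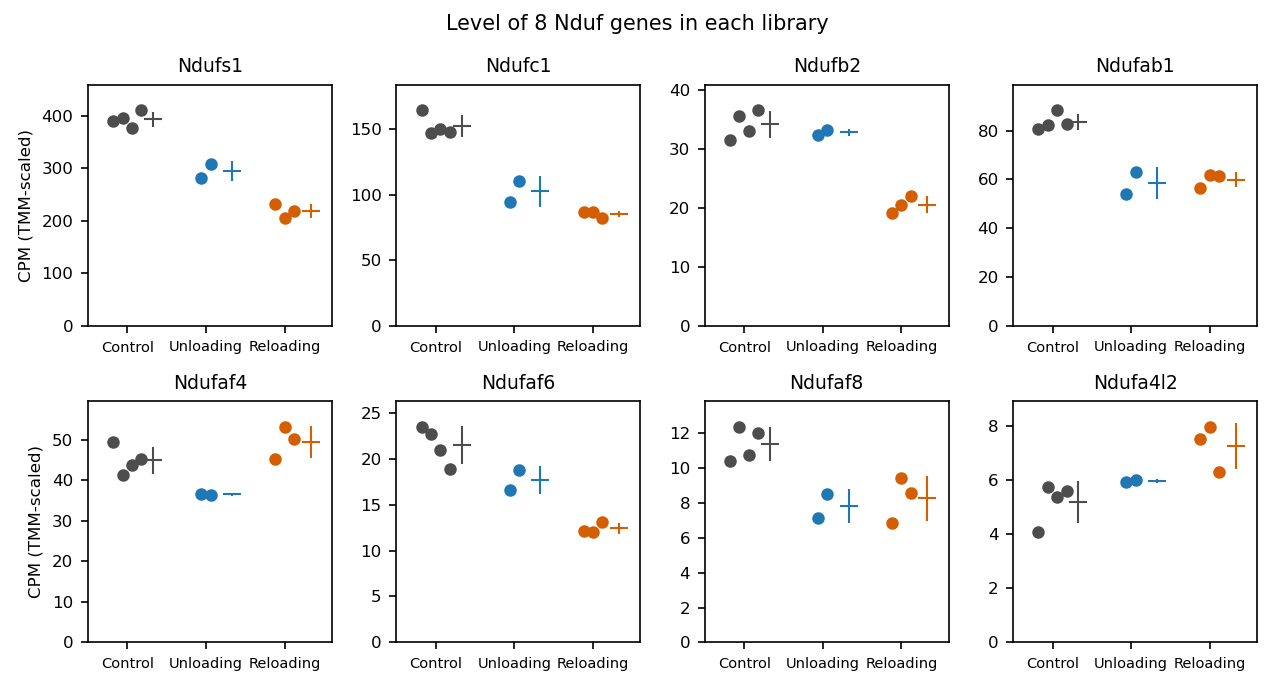
TMM-scaled CPM (vertical axes from 0) of 8 Nduf genes in each library; points are libraries, and the bar beside them is the group mean ± SD (4 Control, 2 Unloading and 3 Reloading libraries). Ndufs1 descends over the groups, Ndufb2 is at 19.2 to 22.0 CPM in Reloading only, and Ndufaf4 is lowest in Unloading, at 36.3 and 36.8 CPM.

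Reloading against Control gives the sum of both steps. All 37 structural subunits were lower in Reloading and none overlapped with Control. With Ndufa4 included, 38 of the 39 subunit members fell and Ndufa4l2 rose, with a median log2 fold change of -0.59, a decrease of 33.4%. Among all tested genes 21.3% were called lower and 22.1% higher, and 22.7% lay entirely below Control. Of the assembly factors 6 fell and 0 rose, with a median of -0.45, a decrease of 27.0%. With library totals only, the medians were -0.35 and -0.21, compared with 0.25 for all tested genes, and 35 subunit members and 4 assembly factors were lower, as were 9.99% of all tested genes. Without Control 2 and Reloading 1, 38 and 5 were lower, as were 17.3% of all tested genes.

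The 3 largest decreases in Reloading were those of Ndufs1, Ndufc1 and Ndufb1. Ndufs1 fell to 219 ± 12.7 CPM (SD, n = 3) from 394 ± 14.0 CPM (SD, n = 4), which is 44.5% lower (log2 fold change -0.85 ± 0.07, adjusted p = 1.58e-07). Ndufc1 measured 86.6, 86.6 and 82.5 CPM in Reloading and was 44.0% lower than in Control (-0.84 ± 0.07, adjusted p = 4.31e-07). Ndufb1, a small subunit of the membrane arm (ENSMUSG00000113902, chr12:101968090-101977068), measured 123, 129, 130 and 127 CPM in Control, 101 and 103 in Unloading, and 64.9, 74.6 and 76.5 in Reloading (-0.82 ± 0.07 against Control, adjusted p = 3.35e-07). The smallest decreases among the structural subunits were those of Ndufb10 and Ndufa7 (-0.41 in each). The structural subunits thus ranged from -0.85 to -0.41, and the 7 core genes from -0.85 to -0.50.

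Across genes, the SD of the log2 fold change was 0.29 for the assembly factors, 0.21 for the 39 subunit members and 0.12 for the 37 structural subunits. The assembly factors were measured less precisely (median SE 0.10 against 0.07), and the difference in spread was not tested. The assembly factors that fell were Ndufaf6 (-0.78), Ndufaf7 (-0.65), Ndufaf5 (-0.65), Ndufaf8 (-0.46), Ndufaf1 (-0.45) and Ndufaf3 (-0.44). Ndufaf1, an early factor that travels with the membrane arm (ENSMUSG00000027305), measured 30.2, 29.5, 31.1 and 32.9 CPM in Control, 25.3 and 26.6 in Unloading, and 23.9, 23.4 and 20.7 in Reloading. Its groups were ordered without overlap although neither single step passed. Ndufaf3, the partner of Ndufaf4 in matrix arm assembly, measured 11.8, 8.87, 11.0 and 8.58 CPM in Control, 6.14 and 7.81 in Unloading, and 7.01, 8.32 and 6.82 in Reloading (-0.44 ± 0.14 against Control, adjusted p = 0.0213). Ndufaf3 thus passed as lower where Ndufaf4 did not, and the difference between the 2 genes was not tested. The call of Ndufaf3 was lost in 5 of 17 alternative settings and that of Ndufaf8 in 3. Both were lost with library totals only and without Reloading 1. Ndufaf2, a factor bound to a late intermediate, measured 10.0, 8.70, 9.43 and 8.67 CPM in Control and 7.82, 6.73 and 8.01 in Reloading (-0.29 ± 0.12, adjusted p = 0.0731). Of its exon length, 65.7% is shared with B230220B15Rik, which held 1 count over all libraries, against 1014 for Ndufaf2. Unstranded counting cannot separate reads of the shared part, and how these were assigned was not tested.

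Ndufa4 and Ndufa4l2 moved in opposite directions. Ndufa4, which is found in cytochrome c oxidase (ENSMUSG00000029632, chr6:11900292-11907497), measured 479, 484, 463 and 479 CPM in Control, 374 and 414 in Unloading, and 273, 289 and 292 in Reloading. It fell at both steps and was 40.2% lower in Reloading than in Control (log2 fold change -0.74 ± 0.06, adjusted p = 3.13e-07). Ndufa4l2, a hypoxia-induced paralogue (ENSMUSG00000040280, chr10:127514967-127517154), measured 4.06, 5.72, 5.36 and 5.58 CPM in Control, 5.91 and 6.01 in Unloading, and 7.49, 7.95 and 6.29 in Reloading. Its groups were ordered upward without overlap, and it was 1.38-fold higher in Reloading than in Control (0.47 ± 0.14, adjusted p = 0.0145). The call was lost without Reloading 2 and with the Wald test of DESeq2, with adjusted p up to 0.0752.

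The other genes needed for complex I were described from lists of their own. Of 11 assembly factors without an Nduf symbol, 3 fell in Unloading (Ecsit, Dmac1 and Dmac2), 2 were lower in Reloading than in Unloading (Acad9 and Tmem126b), and 9 were lower in Reloading than in Control, with median log2 fold changes of -0.22, -0.19 and -0.35. The shares were 27.3%, 18.2% and 81.8%, beside 5.5%, 19% and 21.3% of all tested genes, so the share of the reloading step was near that of all genes. The 2 that did not pass in the last comparison were Timmdc1 (-0.23) and Foxred1 (-0.15). Of the 7 mitochondrially encoded subunits mt-Nd3 (-0.53) and mt-Nd4l (-0.66) fell in Unloading, beside 5.5% of all tested genes, while the other 5 did not pass and the median was 0.02. The difference from the nuclear subunits was not tested. In Reloading 5 of the 7 were lower than in Unloading, from -0.76 for mt-Nd1 to -1.22 for mt-Nd6, and all 7 were lower than in Control, with a median of -0.85. Libraries were made from polyadenylated RNA, in which mitochondrial transcripts are caught to differing degrees. Mitochondrial genes took 9.36% to 10.6% of the counts in Control and Unloading, and 6.49% to 6.75% in Reloading.

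Of 12 genes of regulators of nuclear respiratory genes, 1 fell and 1 rose in Unloading, with a median log2 fold change of -0.09. The difference from the subunit members was not tested in any comparison. In Unloading, Esrra, which encodes oestrogen-related receptor alpha, fell (log2 fold change -0.41 ± 0.09, adjusted p = 0.0130) and Nrf1, encoding nuclear respiratory factor 1, rose (0.38 ± 0.10, adjusted p = 0.0310). In Reloading 0 of the 12 were lower than in Unloading and 4 were higher: the coactivators Ppargc1b (0.58) and Pprc1 (0.59), Esrra (0.27) and Gabpb1 (0.67), a subunit of GABP. Among all tested genes 18.5% were called higher in this comparison and 22.1% against Control. Against Control, Tfam, which encodes the factor that packages mitochondrial DNA, was lower in Reloading (-0.23 ± 0.06, adjusted p = 0.00870), and Ppargc1b, Pprc1, Nrf1 and Gabpb1 were higher. Ppargc1a, which encodes the coactivator PGC-1alpha, did not pass in any of the 3 comparisons (-0.04, 0.03 and -0.01), and neither did Yy1 (0.04, -0.03 and 0.01).

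In Reloading, most of the 7 fibre markers moved down, as the complex I genes did, while most macrophage and endothelial markers moved up. Of the 7 fibre markers 5 were lower in Reloading than in Unloading, with a median log2 fold change of -0.59, and 5 were lower than in Control, with a median of -0.55, beside -0.28 and -0.59 for the subunit members. In Unloading, 2 fibre markers fell (Acta1 and Myh2), 1 rose (Actn3) and the median was 0.05, while that of the subunit members was -0.32. Of 8 slow fibre markers, 2, 3 and 6 were lower in Unloading against Control, Reloading against Unloading and Reloading against Control. Of 8 macrophage markers 0 changed in Unloading and 7 were higher in Reloading than in Unloading, and of 6 endothelial markers 2 were lower and 5 were higher in the same comparisons. The part that these cells had in the changes of the complex I genes was not tested.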

How the data were processed

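Polyadenylated RNA of 9 gastrocnemius samples was sequenced. The authors aligned reads with STAR 2.7.3a to GRCm38.p6 and counted with featureCounts 2.0.3 (submitters' processing notes, Ensembl release 102 gene models). The labels say paired-end, while the methods say single reads. The deposited table holds raw counts per gene, unnormalized and counted without strand. The authors' DESeq2 tables hold their fold changes and p-values, and were used for symbols and biotypes only.

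The tests used edgeR 4.0.16 in R 4.3.3 (filterByExpr, minimum count 10, minimum total 15; TMM; glmQLFit with group as the only term; two-sided quasi-likelihood F-test, Benjamini-Hochberg). The log2 CPM used a prior count of 2. SE came from the F statistic. Scripts were tested on simulated data. The numbers in the sample descriptions gave a hint of pairing of Control with Reloading (correlations of deviations from the group means of 0.36, 0.14 and 0.16). The 0.36 was of Control 2 with Reloading 1, which both held skin keratin genes. The labels do not say what the numbers mark, and the block is an alternative. Alternatives included DESeq2 1.42.0. The members, gene lists and motifs were chosen with earlier results of these data known. Named were the core subunits (values of 1 are not reported here), all Ndufaf genes, Ndufa4, Ndufa4l2, the 3 genes with the largest called change in each direction and comparison, and others where a count left few unnamed; Ndufab1 and Ndufb10 were chosen after their values were seen.

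Exons shared with another gene cover 65.7% of Ndufaf2, 39.0% of Ndufb6 and 30.0% of Ndufa13. The 6 processed pseudogenes with Nduf symbols had 6 to 84 counts per library, and reads could be split between them and their parent genes. Chi-square tests of counts, run for pairs of libraries within each group only, found no library deposited more than once in its group.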

Additional observations from a re-analysis of the deposited data

Results flagged for a closer look

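Of the 47 genes, Ndufa7, a matrix arm accessory subunit, had 1 Control library far from the other 3. Control 4 measured 76.4 CPM, compared with 85.5 to 87.1 CPM in Control 1 to 3, and the gap took 0.848 of the range of the group. Chance alone places about 1 in 20 groups past the limit used.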

How the results depend on the processing

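In Unloading against Control, the 2 assembly factors called lower became 1 with DESeq2's size factors, and 0 with the Wald test of DESeq2 and with the replicate block by either set of numbers. Leaving out each library in turn, the subunit median ran from -0.43 to -0.21. Over all tested genes, 1470 were called, compared with 121 without Unloading 1 and 949 without Control 3.

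In Reloading against Unloading, library totals only gave 6 subunit members lower and 3 higher, 0 assembly factors lower, and medians of -0.0329 and 0.0512 for subunit members and assembly factors. Leaving out each library in turn, 13 to 27 subunit members and 1 to 3 assembly factors were lower, with medians from -0.404 to -0.156 and from -0.294 to -0.0927. The share of all tested genes called lower moved as well, from 15.6% without Reloading 2 to 19.6% without Control 2. That range is over the left-out Control and Reloading libraries only. Fits without an Unloading library leave a lone library in that group, so counts of calls from them are uncertain. In Reloading against Control, library totals only gave medians of -0.35 and -0.21 and 1 assembly factor higher (Ndufaf4). The 1 subunit member called higher (Ndufa4l2) became 0 with the Wald test of DESeq2 and when Ndufa4 and Ndufa4l2 were left out, and ran from 0 to 1 over left-out libraries, where the assembly factor median ran from -0.55 to -0.43. Library totals only shift all Reloading libraries upward. For the other changes the cause was not tested.

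Some members changed sign. In Reloading against Unloading, library totals only turned 15 members positive, 2 of them called lower under TMM scaling (Ndufa5, 0.0101, and Ndufb3, 0.00964) and 13 uncalled, with 0.0861 for Ndufs7, 0.0506 for Ndufaf1, 0.0518 for Ndufaf2 and a highest value of 0.219 for Ndufb10. Under the other settings no called member changed sign. Ndufa8 moved to -0.00798 with no filter, -0.00634 with DESeq2's Wald test and -0.00455 with the block by description number, and Ndufaf8 to -0.0601 with that block. Without Unloading 1 and without Unloading 2, the ends of the range over left-out libraries, this comparison gave -0.18 and 0.25 for Ndufa8, -0.0450 and 0.213 for Ndufaf8, -0.0871 and 0.258 for Ndufaf3, and -0.324 and 0.00571 for Ndufs7. In the same way Ndufaf2 gave 0.0609 and -0.282 in Unloading against Control.

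Deviations from the group means correlated between -0.20 and 0.08 for the 7 pairs of the title numbers, which were not taken to pair the samples. By the description numbers, the 3 pairs of Control and Reloading correlated between 0.14 and 0.36, all over 0.1. The 2 pairs of Control and Unloading correlated at 0.05 and 0.08, and the 1 pair of Reloading and Unloading at 0.02. The 0.36 was of Control 2 with Reloading 1, the 2 libraries with skin keratin genes, and the part of these genes in it was not tested. The description numbers were taken as a hint of pairing only, and their block was used in an alternative fit. With the replicate block by title number, 17 subunit members were lower in Unloading, 24 in Reloading against Unloading and 38 in Reloading against Control. The shares of all tested genes called lower were 3.82%, 17.2% and 19.2% in the same order. With the block by description number, 25, 26 and 38 subunit members and 0, 2 and 6 assembly factors were lower. Of all tested genes, 5.37%, 16.7% and 22.1% were called lower with that block. This block changed no call of the 47 genes in Reloading against Control. Unloading had 2 libraries, which limits both of its comparisons.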
